A study of Mus musculus with 12 samples.

Results

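RNA of mT6, a line of mouse pancreatic ductal adenocarcinoma organoids, was compared between an Spdef-knockout clone carrying an SPDEF vector and a Rosa26-knockout control with Spdef left intact. All 4 libraries whose titles name these groups were used, 2 in each group, out of 12 libraries from 2 lines. Per the labels, the organoids came from C57/Bl6 mice in which Pdx1-Cre, a driver of the pancreatic epithelial lineage, switched on the Trp53 allele R172H, with the remaining Trp53 allele lost (LOH), and every group shares this genotype. The control carried a guide against Rosa26, a neutral locus, and an empty vector, while the other group was the single knockout clone KO1 with the SPDEF vector. The same clone with an empty vector (2 libraries, the knockout below) shows what the vector was added to. No label tells whether libraries that share a group were grown separately. Unless stated otherwise, the p-values come from a fit of all 12 libraries. They reflect the spread within groups over both lines, not the spread within the 4 compared libraries alone. That spread may therefore be technical.

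SPDEF belongs to the ETS transcription factors and is found in secretory epithelia such as intestinal goblet cells and airway secretory cells. ETS factors bind DNA at a short core motif, and SPDEF is known for binding the core GGAT. In mucous cells it is known to act upstream of other factors, of mucin genes, of the enzymes that attach sugars to mucins and of the endoplasmic reticulum machinery that folds secreted proteins. The comparison with the control shows, for each gene, whether its level with the vector stood at, short of or past the level seen with intact Spdef.

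Depth was 11589956 and 28903831 expected counts in the control libraries, 10897005 and 21670653 in the knockout and 9111713 and 9094295 in the libraries labelled SPDEF vector. Mitochondrial genes took 12.7% and 20.1% of the counts in the first and second control library and 15.1% and 27.1% with the vector. The ductal epithelial markers Epcam, Cdh1, Krt8, Krt18, Krt19 and Sox9 were present in all 4 libraries, Epcam at 410 to 582 CPM (counts scaled by TMM to a common library size). The defining markers of other cells lay at or near 0. Cdh5, Dcn, Cpa1 and Chga had 0 counts in all 4 libraries, Ptprc had 1 count, Ctrb1 had 1 count, and Col1a1, Col1a2, Pecam1, Pdgfra, Dclk1 and Pou2f3 had at most 13 in any library.

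The targeted gene was read first. Spdef (ENSMUSG00000024215) lies on chromosome 17 from 27714352 to 27728955 of GRCm38. It had 30 and 29 counts in the control libraries, 0 and 2 in the knockout, and 1 and 0 in the libraries labelled SPDEF vector. Mouse Spdef was thus near 0 in knockout and vector alike, with summed counts in the vector libraries 24.5-fold below the control (95% counting interval 4.23 to 984; edgeR adjusted p = 0.0478). Its call was lost in each of the 6 fits that leave out a single library, with the highest adjusted p, 0.205, among them, and in DESeq2 (0.0938). Whether transcripts of the vector can be counted under the mouse gene is not given in the sources used here, so every direction below rests on the label of these libraries.

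At an adjusted p under 0.05, the libraries labelled SPDEF vector exceeded the control for 565 of 14473 tested genes (3.9%) and stood below it for 680 (4.7%), 8.6% in all. More than 2-fold, 302 (2.09%) were higher and 376 (2.6%) lower, and 69 of the 1245 called genes had at most 3 counts in one group. Over all genes, 6596 (45.6%) had no overlap between the 2 groups in CPM, which is the background for statements below on overlap of vector and control. No such share was counted for statements that also take in the knockout libraries. The median log2 difference over all genes was 0.000358. With the replicate number as a block, which the libraries' shared deviations by number warrant, 1306 (9.02%) were higher and 1444 (9.98%) lower, 19% in all. Unless stated otherwise, calls and adjusted p-values below come from the edgeR fit without the block. DESeq2 called 654 (4.52%) higher and 708 (4.89%) lower, 9.41% in all. The counts were 267 and 350 without the first control library, 242 and 342 without the second, 335 and 347 without the first vector library and 395 and 323 without the second. Because tissue-like cultures were read in bulk, fewer cells of a type and less RNA per cell cannot be told apart in any of these differences.

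The knockout itself differed from the control in 468 genes (3.23%), 185 (1.28%) higher and 283 (1.96%) lower, and these are the genes that could return. With the vector, 300 of them fell short, meaning that they were called against the control in the direction of the knockout. Another 91 lay within 2-fold, with no call and a 95% interval of the fold change inside 2-fold either way, 10 lay past the control, called in the opposite direction, and 67 were unresolved. Both comparisons use the same 2 control libraries, so a control value that is off by chance moves both the same way, and the classes are a description. Under the block the knockout called 1809 genes (12.5%), and the classes held 1122, 481, 43 and 163 genes. The number that fell short was 142 and 121 without the first or second control library and 107 and 101 without the first or second knockout library. The unresolved number was 29 without the second control, 15 and 17 without the first or second knockout library and 145 and 148 without the first or second vector library.

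**Figure D1:**
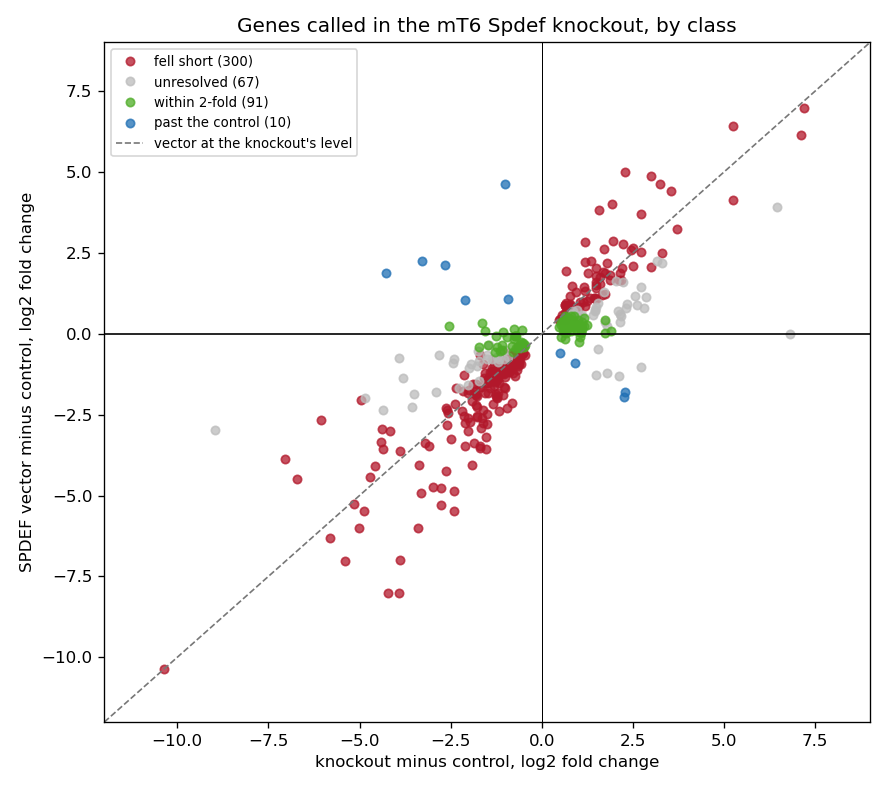
Log2 fold change of the knockout (x axis) and of the libraries labelled SPDEF vector (y axis) against the same mT6 controls, for the 468 genes called in the knockout, coloured by class. The 300 genes that fell short lie along the dashed line, where vector and knockout are equal, and the 10 past the control lie in the upper left and lower right; fitted values of genes with a group at 0 counts have no fixed size.

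The 10 genes past the control fell into 6 that were lower in the knockout and stood above the control with the vector, and 4 that went the reverse way. All 10 were also called between vector and knockout. The class nearly fixes this in advance, since it places knockout and vector on opposite sides of the control, so it is no further support. Over all genes that comparison called 389 (2.69%), 224 (1.55%) higher and 165 (1.14%) lower with the vector. The 6 included a pair of related transcription factors of secretory cells that sit in the membrane of the endoplasmic reticulum until they are cleaved, Creb3l4 and Creb3l1, and Foxa3, a forkhead factor of goblet cells. Creb3l4 had 3.58 and 3.07 CPM in the control libraries, 1.33 and 1.87 in the knockout and 77.9 and 84.8 in the libraries labelled SPDEF vector. The 3 groups did not overlap, and the vector stood above the control by 4.62 ± 0.16 on the log2 scale (SE, 2 libraries against 2; edgeR adjusted p = 8.82e-07).

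Creb3l1 had 6.70 and 8.64 CPM in the control, 0.708 and 0.836 in the knockout and 30.3 and 43.2 with the vector. It too had no overlap between the groups, with 2.25 ± 0.21 between vector and control (adjusted p = 0.000257). Foxa3 had 9.06 and 6.39 CPM in the control, 1.68 and 1.82 in the knockout and 17.5 and 13.7 with the vector. Its excess over the control was 1.03 ± 0.21 (adjusted p = 0.0158).

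The remaining genes that lay above the control were St8sia4, Gramd1b and Mapre2. St8sia4, a polysialyltransferase gene, went from 6.63 and 9.5 CPM in the control to 22.1 and 48.8 with the vector (log2 fold change 2.12 ± 0.45, adjusted p = 0.0238), having been at 0.442 and 1.87 in the knockout. Gramd1b, whose product moves cholesterol from the plasma membrane to the endoplasmic reticulum, went from 1.37 and 3.61 to 7.6 and 12 (1.89 ± 0.44, adjusted p = 0.0292) and had 3 and 1 counts in the knockout. Mapre2, a microtubule end-binding protein gene, rose from 7.84 and 8.21 to 13.8 and 20.1 CPM (1.07 ± 0.20, adjusted p = 0.0099). The vector libraries were the highest of the 6 mT6 libraries for all 3 genes.

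Below the control lay Psca, Ptpn22, Serpinb1a and Shc1, all higher in the knockout. Psca, a GPI-anchored surface antigen of gastric and prostate epithelium, had 2.89 and 6.07 CPM in the control, 20.2 and 23.4 in the knockout and 0.935 and 1.41 with the vector (vector minus control, -1.97 ± 0.46 on the log2 scale, adjusted p = 0.0215). Ptpn22, a lymphoid phosphatase gene, had 24 and 52 counts in the control, 107 and 171 in the knockout and 5 and 4 with the vector (-1.79 ± 0.46, adjusted p = 0.0291), and limma on log2(TPM + 1), which takes transcript length into account, gave no call (0.97). Serpinb1a, an inhibitor of neutrophil elastase, fell from 52.3 and 62.7 to 24.2 and 37.8 CPM (by 0.89 on the log2 scale, adjusted p = 0.0261). Shc1, an adaptor of receptor tyrosine kinases, fell from 121 and 134 to 87.4 and 81.5 CPM (by 0.60, adjusted p = 0.01). For each of the 4 genes control and vector did not overlap.

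Only Creb3l1 stayed in this class in all 6 fits that leave out 1 mT6 library, while all 10 genes did so under the block and in DESeq2. With limma on log2(TPM + 1) 2 of the 10, Creb3l1 and Psca, stayed in it. Creb3l4 stayed above the control in each fit but lost the knockout's own call without either control library or the first knockout library (up to 0.133). Against the control, Foxa3 missed the threshold without the second control or the first vector library (up to 0.116). St8sia4 and Gramd1b missed it up to 0.131 and 0.14, Mapre2 up to 0.0581, Psca and Ptpn22 up to 0.136 and 0.146, and Serpinb1a and Shc1 up to 0.131 and 0.0765, in each case without a control or a vector library. The knockout's own call also failed in some of these fits for St8sia4, Gramd1b and Mapre2 (up to 0.173, 0.164 and 0.247) and for Psca, Serpinb1a and Shc1 (up to 0.0506, 0.182 and 0.257). The class held 3 genes without the first control library, 1 without the second, 4 without either knockout library or the second vector library and 7 without the first vector library. St8sia4 lies on chromosome 1, whose genes were lower as a group (described with the falls).

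**Figure D2:**
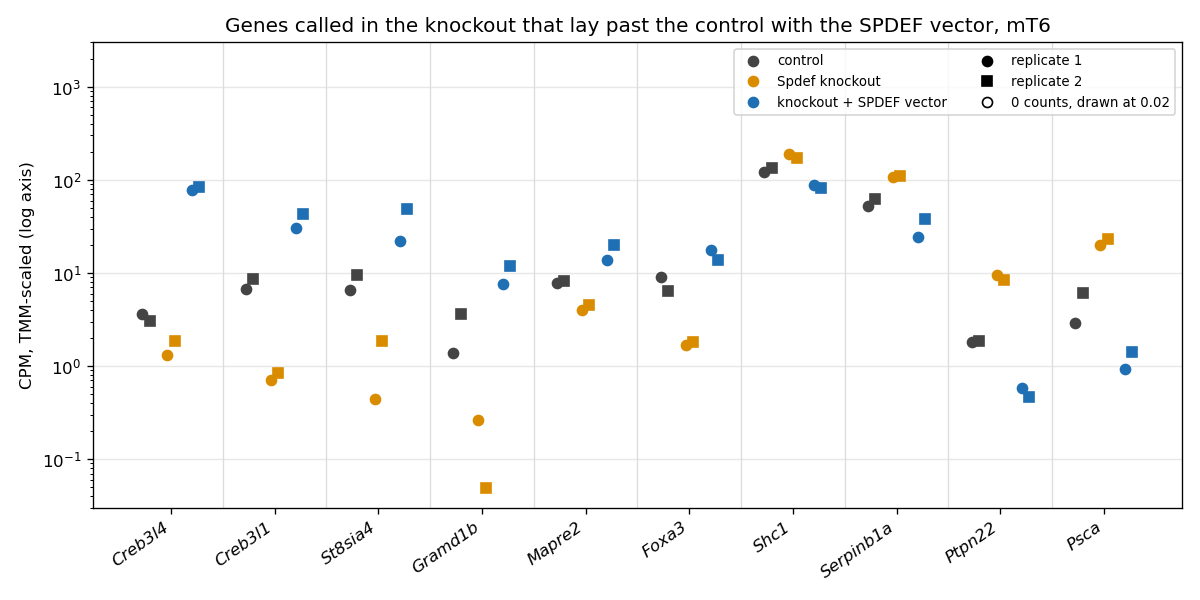
CPM of the 10 genes past the control in each of the 6 mT6 libraries, on a log axis, with circles for replicate 1 and squares for replicate 2. The vector points lie above both other groups for the 6 genes on the left, Creb3l4 at 77.9 and 84.8 CPM, and below both for the 4 on the right.

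Upstream sequence is shown for 4 of the genes that stood above the control, picked after their values were seen, so that the core motif can be read in place. The 250 bases before the start come from RefSeq (build GRCm38.p6), and capitals mark the core GGAT or its reverse complement ATCC. The first pair lay past the control, and the second pair rose without a call in the knockout.
Foxa3, chr7:19023540-19023789, minus strand: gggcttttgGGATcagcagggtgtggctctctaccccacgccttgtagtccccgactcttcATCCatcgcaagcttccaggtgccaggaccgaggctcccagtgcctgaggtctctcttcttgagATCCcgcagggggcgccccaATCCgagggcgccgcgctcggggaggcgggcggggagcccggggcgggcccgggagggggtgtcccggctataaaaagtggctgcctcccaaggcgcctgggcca
St8sia4, chr1:95667595-95667844, minus strand: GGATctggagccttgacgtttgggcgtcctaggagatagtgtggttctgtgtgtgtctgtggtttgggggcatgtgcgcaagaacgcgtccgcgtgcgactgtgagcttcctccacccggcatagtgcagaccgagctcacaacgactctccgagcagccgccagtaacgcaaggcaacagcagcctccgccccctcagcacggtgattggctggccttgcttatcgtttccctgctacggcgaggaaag
Gkn3, chr6:87388936-87389185, minus strand: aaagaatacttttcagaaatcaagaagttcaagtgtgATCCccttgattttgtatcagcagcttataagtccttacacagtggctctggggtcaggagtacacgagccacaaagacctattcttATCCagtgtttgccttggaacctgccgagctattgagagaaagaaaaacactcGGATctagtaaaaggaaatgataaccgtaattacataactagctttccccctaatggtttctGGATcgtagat
Spats2l, chr1:57845321-57845570, plus strand: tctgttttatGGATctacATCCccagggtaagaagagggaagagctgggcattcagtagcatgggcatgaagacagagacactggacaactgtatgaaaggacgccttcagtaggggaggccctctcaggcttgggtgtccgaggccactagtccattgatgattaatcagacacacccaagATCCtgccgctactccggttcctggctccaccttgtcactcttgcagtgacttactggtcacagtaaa
The core occurred 4 times upstream of Foxa3 and Gkn3, 3 times upstream of Spats2l and once upstream of St8sia4. At least 1 copy was present in 74.1% of 32851 such windows. Windows with several copies were not counted, so the copy numbers have no background. The longer form CGGAT, searched on both strands and overlapping the core, was present upstream of Foxa3 and Gkn3 and in 13.4% of windows, and GGATGTA upstream of Spats2l and in 1.65%. These are matches of letters, and no binding was measured.

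Most rises over the control, 474 of 565, were in genes not called in the knockout by the fit without the block. Of these, 151 were also called against the knockout. The split was not recounted under the block, where the knockout called 1809 genes (12.5%). Spats2l led by significance, with 0.305 and 0.679 CPM in the control, 0.0885 and 0.541 in the knockout and 40.5 and 48.1 in the libraries labelled SPDEF vector (log2 fold change 6.33 ± 0.41, adjusted p = 3.2e-05). Gkn3, a gastrokine gene of mucous neck cells of the stomach, had 1 count in each control library, 0 in the knockout and 31 and 61 with the vector. Its summed counts were 111-fold higher than in the control (29.8 to 929; adjusted p = 0.00159). Kif26a, an atypical kinesin gene, had 0 and 4 counts in the control, 11 and 15 in the knockout and 86 and 72 with the vector (6.49 ± 0.83, adjusted p = 0.000199). The vector libraries lay above all control and knockout libraries for these 3 genes, and for Kif26a the knockout lay between control and vector. The largest rises, these 3 among them, were picked among genes without overlap between vector and control. Separation from the control is therefore given by the choice.

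Lman1l, related to the cargo lectin of transport from endoplasmic reticulum to Golgi, had 0 and 1 counts in the control, 0 in the knockout and 35 and 74 with the vector, 263-fold higher in summed counts (46.1 to 10464; adjusted p = 0.00386). Nrg2, a neuregulin ligand of ErbB receptors, had 0 and 9 counts in the control and 70 and 92 with the vector (5.46 ± 0.67, adjusted p = 0.000435). St6galnac2, which adds sialic acid to mucin sugars, rose from 1.14 and 3 to 36.3 and 61.3 CPM (4.45 ± 0.44, adjusted p = 0.000518), and a second identifier with this symbol went from 1 and 0 to 11 and 20 counts. Slpi, a secreted protease inhibitor of mucosa, had 0 counts in both control libraries and 26 and 6 with the vector, at least 25.7-fold higher (adjusted p = 0.012). Here and below, a fold written as at least sets the group with 0 at 3 counts. It takes the other group's counts as exact, so it is not a 95% limit.

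Adgra1, an adhesion receptor gene, had 0 counts in the control and 10 in each vector library, at least 16.1-fold higher (adjusted p = 0.0125), and Lrrc31 had 0 and 1 against 8 and 26 (81.9-fold, 13.7 to 3329; adjusted p = 0.00514). Slpi missed the threshold without the second control or the first vector library (up to 0.0801), Adgra1 without the second control (0.0861) and the second identifier of St6galnac2 also without it (0.0597). The calls of Spats2l, Gkn3, Kif26a, Lman1l, Nrg2, Lrrc31 and the main St6galnac2 identifier held in each of these 6 fits.

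**Figure D3:**
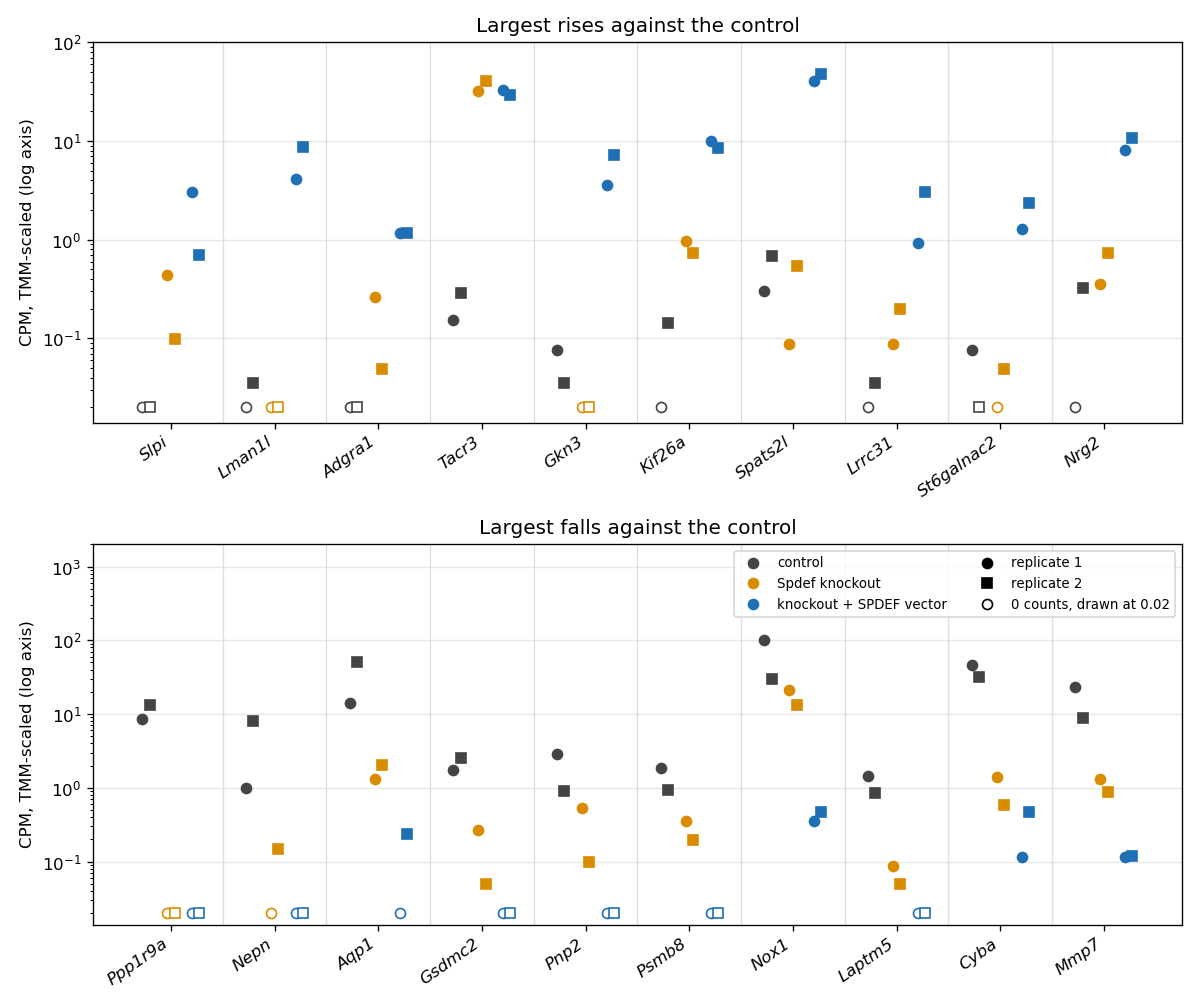
CPM of the 10 largest rises (top) and the 10 largest falls (bottom) against the mT6 control in each of the 6 mT6 libraries, on log axes, with open symbols at 0.02 for 0 counts. For most rises control and knockout lie together and the vector is high. Tacr3 is an exception, at 32.4 and 40.5 CPM in the knockout, and for Kif26a the knockout lies between control and vector. The St6galnac2 shown is the identifier with fewer counts.

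The genes that fell short were mostly those lower in the knockout, 215 against 85 that were higher. With the vector their median difference from the control was -1.33 on the log2 scale for the first set and 1.43 for the second, beside -1.26 and 1.34 in the knockout. Only 2 of the 300 were called back toward the control between vector and knockout, and 23 were called further away from it. Tacr3, the neurokinin B receptor gene, had 0.152 and 0.286 CPM in the control, 32.4 and 40.5 in the knockout and 33.3 and 29.0 with the vector (vector minus control, 6.97 ± 0.37, adjusted p = 1.78e-06). Ppp1r9a, which encodes neurabin, an actin-binding subunit of protein phosphatase 1, had 114 and 372 counts in the control and 0 in all 4 knockout and vector libraries. It was at least 67.3-fold lower than in the control (edgeR adjusted p = 0.00436), though not called in DESeq2 (0.352).

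Igfbp3, which binds insulin-like growth factors outside the cell, had 0 counts in the control, 18 and 17 in the knockout and 6 and 4 with the vector, at least 8.03-fold above the control (adjusted p = 0.0279). Its relative Igfbp4 went the other way, from 86.1 and 71.9 CPM to 6.28 and 2.85 in the knockout and 10.3 and 9.51 with the vector (-3.00 ± 0.27, adjusted p = 0.000214). Ror2, a receptor of Wnt5a, had 60 and 163 counts in the control, 0 and 1 in the knockout and 4 and 2 with the vector (-3.86 ± 0.68, adjusted p = 0.00903). Shroom4, which binds actin, had 54 and 117 counts in the control, 0 and 1 in the knockout and 3 and 0 with the vector, 23.7-fold lower (7.96 to 116; adjusted p = 0.00154).

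Igfbp3 lost its call without any one control or vector library (up to 0.157), and Ror2 without the second control or the second vector library (up to 0.0633). Igfbp4 and Shroom4 held theirs in all 6 fits.

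Other genes that fell short had lower estimates with the vector than in the knockout. Clca1, a secreted protease of goblet cells, had 158 and 115 CPM in the control, 37.0 and 26.6 in the knockout and 11.3 and 13.3 with the vector (-3.47 ± 0.20, adjusted p = 3.22e-05), and its further fall from the knockout passed the test (-1.36, adjusted p = 0.0059). Muc20, a membrane mucin gene, had 14.5 and 19.1 CPM, then 4.86 and 5.46, then 1.17 and 1.76 (-3.52 ± 0.28 against the control, adjusted p = 8.14e-05; against the knockout -1.82, adjusted p = 0.00693). Vil1, which encodes villin of the brush border, had 180 and 179 CPM, 92.1 and 110 and 38.1 and 42.8 (-2.15 ± 0.14, adjusted p = 3.63e-05; against the knockout -1.32, adjusted p = 0.000921). In each of these 3 genes the libraries were ordered control, knockout, vector with no overlap.

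Cyba and Nox1 encode the 2 membrane subunits of an epithelial NADPH oxidase, p22phox and its catalytic partner. Cyba had 608 and 888 counts in the control, 16 and 12 in the knockout and 1 and 4 with the vector (-7.01 ± 0.84, adjusted p = 0.0001), and fell short. Nox1 had 101 and 29.6 CPM in the control, 21.2 and 13.1 in the knockout, where it was not called (adjusted p = 0.08), and 0.351 and 0.470 with the vector (-7.28 ± 1.10, adjusted p = 0.000957). Aqp1, a water channel gene of ducts, had 186 and 1419 counts, then 15 and 42, then 0 and 2, 333-fold lower than in the control (92.1 to 2753; adjusted p = 0.000854). Mmp7, a matrix protease gene of ductal and metaplastic epithelium, had 307 and 251 counts, then 15 and 18, then 1 in each vector library, 116-fold lower (31.9 to 959; adjusted p = 0.000722). Gsdmc2, of a gasdermin cluster with near-identical copies whose counts are uncertain, had 23 and 70 counts in the control and 0 with the vector, at least 12.9-fold lower (adjusted p = 0.0115).

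Genes of chromosomes 1, 14, 17 and 19 were lower as groups in the libraries labelled SPDEF vector. These chromosomes hold 2568 of the tested genes (17.7%) but 391 of the 680 falls and 35 of the 565 rises, and 152 of the 300 genes that fell short. The median log2 difference from the control was -0.31, -0.36, -0.49 and -0.30 for their genes, with negative estimates for 76%, 80.8%, 88% and 79%, while the other chromosomes had medians from -0.02 to 0.16. Both vector libraries showed it, at -0.36 and -0.27 for chromosome 1, -0.38 and -0.32 for 14, -0.43 and -0.53 for 17 and -0.25 and -0.36 for 19. The knockout had medians of -0.28, -0.37, -0.44 and -0.29 against the control, and vector and knockout differed by medians of -0.01 to -0.05. In mT69a, the same comparison gave -0.02, 0.01, 0.05 and 0.10 for these chromosomes, and -0.39 and -0.51 for chromosomes 12 and 18, which had medians of 0.06 and 0.05 in mT6.

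Spdef, Tff1, Tff2 and Psmb8 lie on chromosome 17. The shifts were present in the clone with the empty vector, and in it loss of Spdef and the clone cannot be told apart. Without their genes, a setting chosen after seeing the data, 368 genes were higher and 281 lower, and 97 fell short, so that 56.7% of the calls were rises against 45.4% over all chromosomes.

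**Figure D4:**
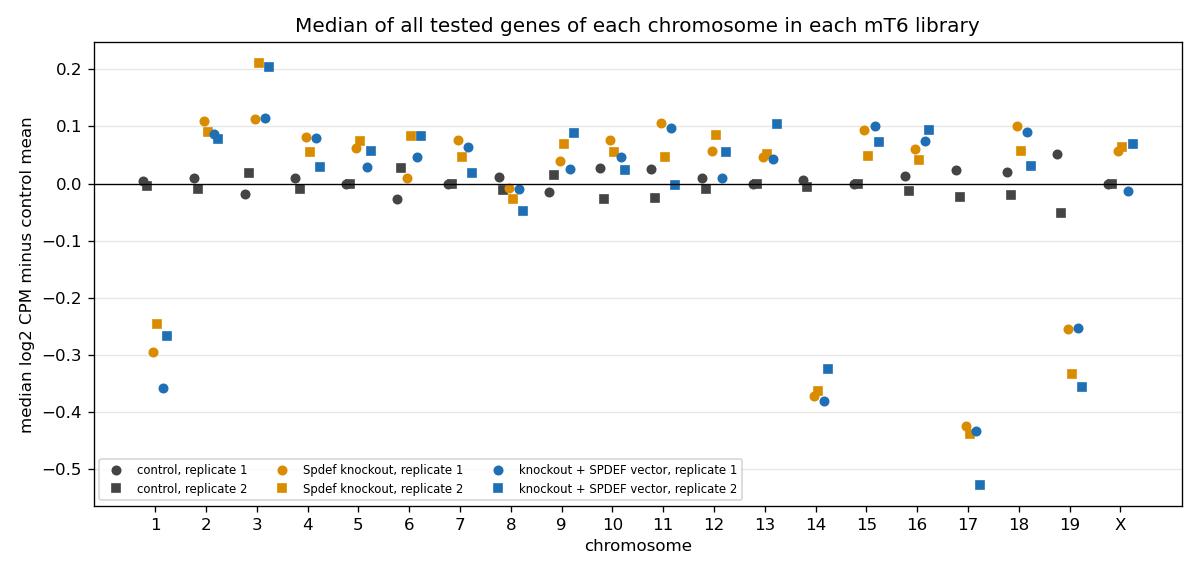
Median over tested genes of each chromosome of log2 CPM minus the mean of the control libraries, for each of the 6 mT6 libraries. Knockout and vector libraries lie between -0.25 and -0.53 for chromosomes 1, 14, 17 and 19 and near or above 0 for the others.

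A stretch of chromosome 1 stood apart. Of 449 windows of 5 Mb with at least 8 tested genes, 4 had a median below -0.7, and these were neighbours, from 150000001 to 170000000 (GRCm38). Of their 111 tested genes 59 were called lower and 0 higher, 105 had negative estimates, and 52 fell short. The median difference from the control was -1.22 and -1.06 in the 2 vector libraries and -1.14 and -1.06 in the knockout libraries, against -0.26 for the other 779 genes of the chromosome with the vector. In mT69a the stretch had a median of -0.03. It was chosen for these values, so no test is given.

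Genes of that stretch have varied roles. Qsox1, which forms disulfide bonds in secreted proteins, had 43.0 and 45.5 CPM in the control, 19.4 and 16.8 in the knockout and 18.3 and 16.2 with the vector (-1.36 ± 0.19, adjusted p = 0.0024). Atp1b1, a subunit of the sodium pump, fell by 1.86 on the log2 scale (adjusted p = 0.00131), and Tor1aip2, which binds torsin in the endoplasmic reticulum, by 1.51 (adjusted p = 0.000688). Sec16b, of the sites where cargo leaves the endoplasmic reticulum, had 59 and 101 counts in the control and 1 and 3 with the vector (-4.05 ± 0.59, adjusted p = 0.000642). Gpa33, a surface antigen of intestinal epithelium, had 69.9 and 73.8 CPM, then 26.1 and 30.3 in the knockout, then 17.8 and 14.3 (-2.16 ± 0.16, adjusted p = 6.96e-05), and its further fall from the knockout passed the test (-0.82, adjusted p = 0.0247).

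The 91 genes within 2-fold of the control were mostly small knockout effects: only 28 had differed from the control by more than 2-fold in the knockout. Of the 91, 58 had been higher and 33 lower, and 27 were called back toward the control between vector and knockout. Ppic, which encodes cyclophilin C of the secretory pathway, is the clearest, with 14.9 and 16.4 CPM in the control, 2.83 and 2.56 in the knockout and 16.5 and 20.7 with the vector. Vector and control differed by 0.24 on the log2 scale (95% interval -0.11 to 0.60; adjusted p = 0.41), and vector and knockout by 2.79 (adjusted p = 0.000102). Both vector libraries lay above both control libraries by a margin inside that interval.

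Ankrd35 had 6.93 and 10.8 CPM in the control, 27.2 and 39.6 in the knockout and 6.54 and 12.6 with the vector, and its vector values overlapped those of the control (0.09, interval -0.60 to 0.79). Slurp1, a secreted Ly6-type protein gene, had 4.34 and 5.36, then 13.7 and 18.5, then 7.24 and 5.87 (0.42, -0.11 to 0.96). Srgn, a proteoglycan core protein gene, had 2.97 and 2.75, then 10.7 and 8.31, then 2.80 and 2.93 (0.01, -0.87 to 0.89), though its difference from the knockout did not pass (adjusted p = 0.0585). Ggta1, which makes the alpha-gal sugar epitope, had 1.90 and 2.82 CPM, then 0.885 and 0.640, then 1.87 and 1.76 (-0.42, -0.94 to 0.10). The intervals of Slurp1, Ggta1 and Srgn reach almost to 2-fold, which is a difference of 1 on the log2 scale. The number within 2-fold fell to 21 and 19 without the first or second control library and to 23 and 14 without the first or second knockout library.

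The falls against the control numbered 461 in genes not called in the knockout, 92 of them also called against the knockout and 243 on the 4 chromosomes above. These numbers too rest on the fit without the block. Ptgs1, which encodes cyclooxygenase 1, had 38.5 and 48.0 CPM in the control, 30.3 and 32.5 in the knockout and 6.43 and 7.16 with the vector (-2.67 ± 0.22, adjusted p = 0.0001). Fbln1, a matrix glycoprotein gene, had 88 and 206 counts in the control and 5 and 3 with the vector (-3.89 ± 0.47, adjusted p = 0.000475). Lgals4, a galectin of gut epithelium, had 436 and 522 CPM, then 368 and 535, then 82.8 and 161 (-1.97 ± 0.27, adjusted p = 0.00252). None of these was called in the knockout, and the vector-labelled libraries lay below all control and knockout libraries.

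Pnp2, Psmb8, Laptm5 and Nepn had 0 counts in both vector libraries. Nepn, a small proteoglycan gene, had 13 and 222 counts in the control and was at least 32.5-fold lower (adjusted p = 0.0409). Pnp2, a purine nucleoside phosphorylase with a near-identical neighbour whose counts are uncertain, had 38 and 25 (at least 8.72-fold lower, adjusted p = 0.0188). Psmb8, of the immunoproteasome, had 24 and 26 (at least 6.92-fold, adjusted p = 0.0363), and Laptm5, a lysosomal membrane protein gene, 19 and 24 (at least 5.95-fold, adjusted p = 0.0403). All 4 lost their call in some fits without a library, Laptm5 in all 6 (up to 0.138), Nepn in all but that without the first control (up to 0.145), Psmb8 up to 0.121 without any one control or vector library, and Pnp2 up to 0.0752 without either vector library. DESeq2 gave no call for Laptm5 (0.125).

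Counts of named gene groups follow, against the shares of 3.9% higher and 4.7% lower among all genes and the median of 0.000358. The groups were chosen with earlier results of these libraries known, so the counts are descriptions. Measured genes are those left by the count filter over all 12 libraries, so a member near 0 in a group entered through other groups. A member near 0 in the control could be called only as a rise, and a member near 0 with the vector only as a fall. The counts and medians were not adjusted for this. Chromosomes 1, 14, 17 and 19, lower as groups above, hold 17.7% of tested genes. Among the lists below they hold 14 of 48 interferon, 9 of 39 classical, 6 of 19 gastric and 4 of 17 brush border genes. Of the goblet and O-glycosylation genes they hold 2 of 24 and 2 of 30. The part of these chromosomes in the list medians was not tested. Of 24 measured genes of goblet and mucous cell maturation, 9 rose, 3 fell and 12 did not pass, with a median of 0.89, while in the knockout 5 had fallen and 0 risen. Under the block 11 rose and 5 fell. Besides Creb3l4, Creb3l1 and Foxa3 the rises held Ern2, Slc12a8, Rap1gap and Kcnk6. The falls were Clca1, Qsox1 and Spdef itself.

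Agr2, the protein disulfide isomerase that mucin folding needs, had 90.6 and 108 CPM in the control, 12.4 and 24.2 in the knockout and 107 and 243 with the vector. Control and vector overlapped and did not differ by the test (0.82 ± 0.52, adjusted p = 0.42), while vector and knockout did (3.24, adjusted p = 0.0225). Without a filter on low counts, vector and control did differ (0.78, adjusted p = 0.00066), and over the other alternatives the adjusted p was 0.146 to 0.932. Ern2, the IRE1 paralog of mucous epithelium, had 8.23 and 13.4 CPM in the control, 3.01 and 5.76 in the knockout and 24.7 and 43.0 with the vector (1.62 ± 0.38 against control, adjusted p = 0.03). Slc12a8, a transporter gene, had 8 and 14 counts in the control, 0 in the knockout and 46 and 109 with the vector (4.04 ± 0.69, adjusted p = 0.0091). Ern2 missed the threshold without either control or the second vector library (up to 0.149), and Slc12a8 without the second control or second vector library (up to 0.0645).

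Rap1gap, an inactivator of the small GTPase Rap1, had 6.93 and 8.36 CPM in the control, 5.66 and 5.95 in the knockout and 34.9 and 41.4 with the vector (2.31 ± 0.16, adjusted p = 4.07e-05). Kcnk6, a potassium channel gene, rose from 19.6 and 16.8 to 67.5 and 71.3 (1.93 ± 0.15, adjusted p = 7.79e-05). Neither was called in the knockout, and the vector libraries stood above all control and knockout libraries.

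Of 11 measured mucins and trefoil factors 3 rose, 3 fell and 5 did not pass, with a median of 0.14. The gel-forming mucin gene Muc2 had 1.75 and 3.54 CPM in the control and 10.9 and 67.5 with the vector (3.83 ± 0.81, adjusted p = 0.0355), and its neighbour Muc5b had 1.37 and 2.64 against 5.73 and 20.1 (2.64 ± 0.67, adjusted p = 0.0439). In both, the second vector library was several times the first. Muc1, a transmembrane mucin gene, rose from 267 and 281 CPM to 414 and 436 (0.63 ± 0.13, adjusted p = 0.0158), with 296 and 247 in the knockout. Muc5ac, a gastric gel-forming mucin gene, had 5.18 and 15.3 CPM in the control, 15.9 and 35.7 in the knockout and 5.61 and 11.3 with the vector, and did not pass (-0.31 ± 0.60, adjusted p = 0.831).

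The trefoil factors, small secreted peptides of mucous cells, fell along with Muc20. Tff1 had 53.6 and 17.1 CPM in the control, 18.3 and 28.8 in the knockout and 3.74 and 2 with the vector (-3.61 ± 0.75, adjusted p = 0.0222). Tff2 had 61 and 59 counts in the control, 2 and 12 in the knockout and 1 in each vector library, 24.9-fold lower than in the control (6.75 to 208; adjusted p = 0.00864). Muc2 lost its call without either control library, either knockout library or the second vector library (up to 0.184), Muc5b without either control or the second vector library (up to 0.314) and Muc1 in the same fits (up to 0.0978). Tff1 lost it without the first control or either vector library (up to 0.149) and Tff2 without either vector library (up to 0.0573).

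Of 30 measured enzymes of mucin O-glycosylation, 10 rose, 2 fell and 18 did not pass, with a median of 0.53; in the knockout 1 had risen and 2 fallen, and under the block 14 rose and 3 fell. St6galnac2 (above) led the rises. Galnt12, which adds the first sugar of mucin chains, had 29.6 and 35.2 CPM in the control, 20.9 and 24.7 in the knockout and 93.9 and 118 with the vector (1.70 ± 0.19, adjusted p = 0.000725). St3gal4, a sialyltransferase gene, rose from 26.4 and 22.3 to 85.0 and 78.1 (1.75 ± 0.13, adjusted p = 6.96e-05), and was at 24.8 and 28.2 in the knockout. Galnt18 had 0 counts in the control and knockout and 6 in each vector library, at least 9.63-fold higher (adjusted p = 0.0342), a call lost without any one control or vector library (up to 0.147) and in DESeq2 (0.0613).

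B3gnt7, which extends chains of keratan sulfate and core sugars, fell from 40 and 139 counts to 5 and 4 (-2.92 ± 0.45, adjusted p = 0.00264), having 16 and 23 in the knockout. It lies on chromosome 1. The enzymes called higher outnumbered those called lower in these libraries, while most of the group showed no call. A member at 0 in the control, such as Galnt18, could be called in the higher direction only.

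The shares called among general genes of the endoplasmic reticulum were 6.9% for folding and degradation, 10% for translocation and 8.16% for transport to the Golgi, near the 8.6% of all genes. Of 29 measured folding and degradation genes 2 rose and 0 fell (4 at an unadjusted p under 0.05, and 2 called by DESeq2), with a median of 0.03. Edem1, which directs misfolded glycoproteins to degradation, rose from 59.3 and 55.1 CPM to 82.1 and 98.5 (0.66 ± 0.15, adjusted p = 0.0224), and Txndc11, a thioredoxin-domain protein gene, from 20.7 and 25.0 to 31.1 and 43.1 (0.69 ± 0.17, adjusted p = 0.0312). Of 30 genes of translocation and signal peptide processing, Sec11c rose by 0.72 ± 0.19 and Dad1 and Srp9 fell by 0.63 and 0.44 on the log2 scale (adjusted p = 0.0428, 0.0129 and 0.0344). Dad1 lies on chromosome 14 and Srp9 on chromosome 1. Of 49 genes that carry cargo from the endoplasmic reticulum to the Golgi or back, 2 rose and 2 fell, led by Lman1l and Sec16b, and under the block 6 rose and 6 fell.

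Sec16a, the major organiser of the exit sites, rose by 0.50 ± 0.13 (adjusted p = 0.0378). With single libraries left out, Edem1, Txndc11, Sec11c, Dad1, Srp9 and Sec16a all lost their calls in some fits, up to 0.126, 0.16, 0.21, 0.0966, 0.176 and 0.168. A control or vector library was the one left out, and for Sec11c and Srp9 also a knockout library. Under the block the folding genes gave 3 higher and 2 lower and the translocation genes 3 and 2. Of 32 PERK and ATF4 targets, 2 rose and 1 fell. Nupr1, a stress-induced chromatin protein gene, stood at 107 and 99.0 CPM in the control, 245 and 205 in the knockout and 230 and 181 with the vector (0.99 ± 0.15, adjusted p = 0.00333), and fell short.

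Genes of the intestinal absorptive brush border gave the lowest median of the lists with 10 or more measured genes, -1.69. Of 17 measured, 6 fell, 0 rose and 11 did not pass, against 2 that had fallen in the knockout, and under the block 9 fell. Besides Vil1 and Gpa33, Krt20, a keratin of differentiated gut epithelium, had 75.2 and 42.3 CPM in the control, 29.8 and 25.6 in the knockout and 12.4 and 5.52 with the vector (-2.71 ± 0.34, adjusted p = 0.00179). Myo7b, a motor of microvilli, had 45.5 and 60.4, then 39.0 and 48.9, then 14.3 and 18.5 (-1.69 ± 0.22, adjusted p = 0.00142). Adgrg7, an adhesion receptor gene, had 34 and 48 counts, then 52 and 124, then 1 in each vector library, 17-fold lower than the control (4.56 to 143; adjusted p = 0.0156, and up to 0.0915 without the first control or either vector library). Vil1 and Gpa33 lie on chromosome 1.

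Of 19 gastric and pit cell markers, 2 rose and 4 fell (4 and 5 under the block), with Gkn3 among the rises and Tff1, Tff2 and Psca among the falls. Of 23 ductal and progenitor markers 1 rose and 4 fell (4 and 5 under the block), led by Aqp1, Mmp7 and Bicc1. Bicc1, an RNA-binding protein gene, had 10.5 and 8.57 CPM in the control, 1.95 and 1.48 in the knockout and 0.818 and 1.17 with the vector (-3.24 ± 0.35, adjusted p = 0.000285). Of 23 genes of epithelial identity none passed (2 at an unadjusted p under 0.05, 1 by DESeq2, and 2 higher and 1 lower under the block).

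Of 39 genes that mark the classical tumour subtype, 4 rose and 6 fell (6 and 12 under the block), and the median was -0.35. The falls were Spdef, Tff1, Tff2, Krt20, Lgals4 and Dmbt1, a secreted scavenger-receptor protein gene that had 2140.3 and 3521 CPM in the control, 1029 and 1494 in the knockout and 338 and 730 with the vector (-2.41 ± 0.43, adjusted p = 0.0123, and up to 0.067 without the second control or first vector library). Of 24 basal-like and squamous markers 2 rose and 3 fell. Ereg, a ligand of the EGF receptor, rose from 20.3 and 12.4 CPM to 68.0 and 49.5 (1.86 ± 0.25, adjusted p = 0.00185), with 44.4 and 32.7 in the knockout. Lemd1, a nuclear LEM-domain protein gene on chromosome 1, had 100 and 105 counts, then 13 and 20, then 1 in each vector library (42.6-fold lower, 11.6 to 354; adjusted p = 0.00131).

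Il1rn, the interleukin 1 receptor antagonist, fell from 27.6 and 16.4 CPM to 10.9 and 8.45 (-1.17 ± 0.27, adjusted p = 0.0285, and up to 0.159 without the first control or either vector library). Of 14 measured genes of epithelial-mesenchymal transition 2 rose and 4 fell, among them Igfbp3, Igfbp4, Fbln1 and Loxl2. Loxl2, a collagen-crosslinking oxidase gene on chromosome 14, had 21.8 and 13.4 CPM in the control, 6.01 and 2.71 in the knockout and 2.57 and 1.76 with the vector (-3.01 ± 0.42, adjusted p = 0.00214). Members of both subtype lists were called in both directions.

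Of 22 Wnt target and stem cell genes 1 rose and 5 fell, and 3 and 8 under the block. Lgr5, the R-spondin receptor of stem cells, had 69.2 and 70.5 CPM in the control, 38.7 and 42.6 in the knockout and 19.7 and 23.6 with the vector (-1.69 ± 0.32, adjusted p = 0.0125). Ascl2, a stem cell transcription factor gene, had 5.18 and 3.14, then 3.45 and 3.39, then 1.05 and 0.704 (-2.22 ± 0.48, adjusted p = 0.0183), and Tnfrsf19, a Wnt-induced receptor gene on chromosome 14, had 42.1 and 62.2, then 13.7 and 16.5, then 6.08 and 11.6 (-2.56 ± 0.33, adjusted p = 0.00183). Against these falls Sp5, a direct target of beta-catenin, rose from 1.07 and 0.643 to 4.67 and 6.34 CPM (2.72 ± 0.46, adjusted p = 0.00867). Lef1, which carries beta-catenin to DNA, fell from 15.0 and 32.4 to 2.34 and 5.28 (-2.64 ± 0.59, adjusted p = 0.0387). Without single libraries Lgr5 missed the threshold in 3 fits (up to 0.0805), Ascl2 in 3 (up to 0.108), Lef1 in 3 (up to 0.174) and Sp5 without the second control (0.0661), all control or vector libraries.

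**Figure D5:**
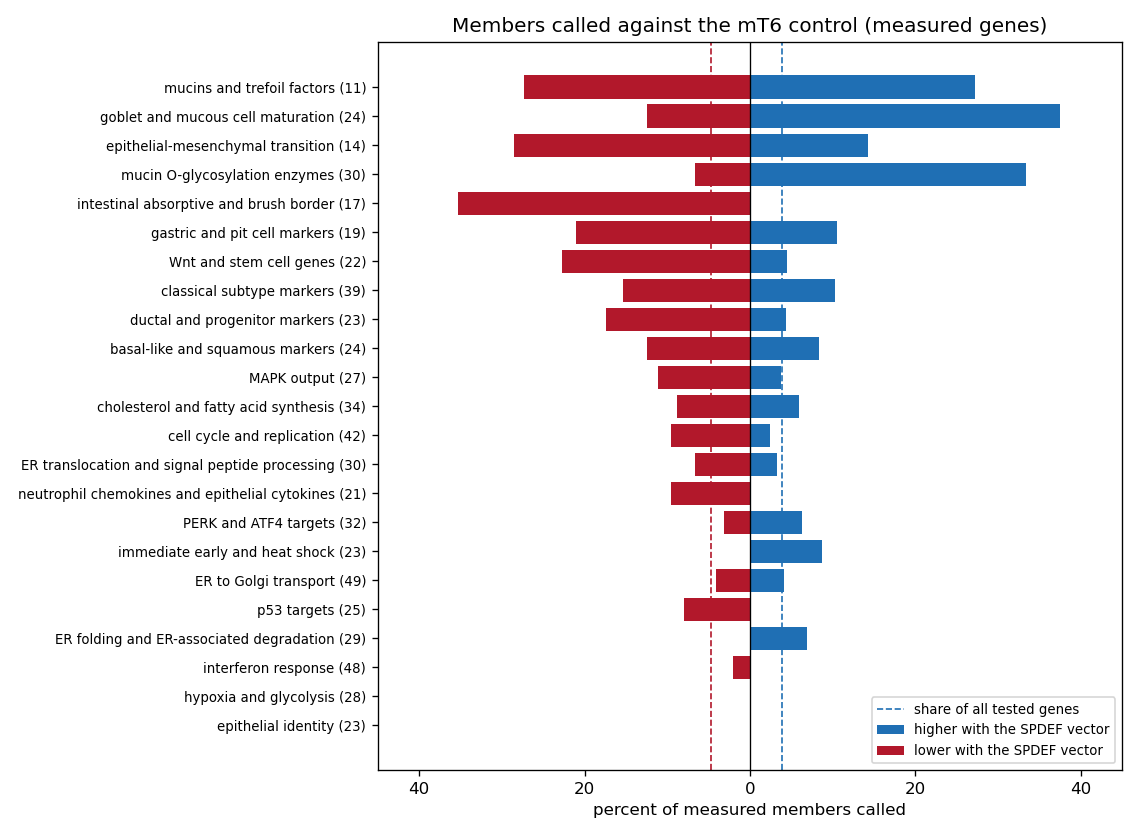
Share of the measured members of each list called higher (right) or lower (left) in the libraries labelled SPDEF vector than in the mT6 control, for lists with 10 or more measured genes, whose number stands in brackets. Dashed lines mark the shares among all tested genes, 3.9% and 4.7%; the goblet and O-glycosylation lists reach furthest to the right and the brush border list furthest to the left.

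Other lists follow, with shares called of 14.8% for MAPK output, 14.7% for lipid synthesis, 11.9% for the cell cycle and 8% for p53 targets. Of 27 genes of MAPK output 1 rose and 3 fell, among them Spry2, a feedback inhibitor of the pathway on chromosome 14, which fell from 68.6 and 53.1 CPM to 28.5 and 24.1 (-1.21 ± 0.22, adjusted p = 0.00915, and up to 0.0646 without the first control or second vector library). Of 42 cell cycle and replication genes 1 rose and 4 fell, of 34 cholesterol and fatty acid synthesis genes 2 rose and 3 fell, and of 25 p53 targets 0 rose and 2 fell. Acly, which makes cytosolic acetyl-CoA for lipid synthesis, rose from 247 and 263 CPM to 458 and 511 (0.93 ± 0.12, adjusted p = 0.00126) and was at 252 and 262 in the knockout. Nr4a1, an immediate early nuclear receptor gene, rose from 6.25 and 5.75 to 22.4 and 16.7 (1.71 ± 0.22, adjusted p = 0.00142), 1 of 2 rises among 23 immediate early and heat shock genes. Of 48 interferon response genes 1 fell and 0 rose (7 at an unadjusted p under 0.05, 2 by DESeq2), with a median of -0.47, and of 28 hypoxia and glycolysis genes none passed (2 and 1).

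Of 21 neutrophil chemokine and epithelial cytokine genes 2 fell, Il1rn and the platelet chemokine gene Ppbp. Among markers of other cells, few were measured: 1 acinar, 4 tuft and enteroendocrine, 1 fibroblast, 3 immune and 3 endothelial genes passed the filter. The summed CPM of the immune list was 27.3 to 32.1 in the control and 56.3 to 91.5 with the vector, with Ly6g alone going from 8 and 9.32 to 74.7 and 45.5 (2.79 ± 0.21, adjusted p = 8.33e-05; 42.5 and 39.0 in the knockout) while Ptprc stayed at 0 counts with the vector. The tuft and enteroendocrine list summed to 39.9 to 50.5 CPM in the control and 7.01 to 10.2 with the vector, its called member being Ptgs1, with 21 of 30 genes at 0 counts in all 4 libraries. The acinar, fibroblast and endothelial lists summed to 0.685 to 4.11, 8.36 to 29.5 and 1.37 to 1.57 CPM in the control and 6.89 to 17.3, 10.3 to 21.6 and 2 to 2.34 with the vector, with 6 of 15, 7 of 15 and 4 of 11 genes at 0 throughout. The part of other cells in the results above was not tested.

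The same comparison in mT69a called 1791 genes (12.4%), and the difference between the lines was called for 873 (6.03%), 307 (2.12%) with a higher and 566 (3.91%) with a lower value in mT6. Under the block it was called for 2080 (14.4%). Creb3l4 and Creb3l1 rose against the control in both lines, by 4.62 and 2.25 in mT6 and 6.36 and 4.38 in mT69a, and the differences of -1.74 and -2.14 passed the test (adjusted p = 0.00334 and 0.00581). Foxa3, Gkn3, Spats2l, St6galnac2 and Muc1 rose in both lines, and their differences did not pass (adjusted p = 0.0709, 0.882, 0.667, 0.928 and 0.522), which does not show them to be equal. Rap1gap rose in mT6 and gave -0.28 in mT69a (adjusted p of the difference 0.000101). Muc20, Igfbp4 and Cyba fell in mT6 and rose in mT69a, by 3.06, 4.54 and 2.43 there (adjusted p of the differences 2.16e-05, 1.77e-05 and 9.25e-05). Lgr5, Lgals4 and Myo7b fell in both, by 3.46, 2.21 and 2.35 on the log2 scale in mT69a.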

How the data were processed

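Stranded total RNA libraries were processed by the submitters with FastQC 0.11.8, STAR 2.5.2b and RSEM 1.3.0 on GRCm38.p6, per the submitters' processing notes. The deposited gene tables give expected counts and TPM, as RSEM estimates them, for 53715 identifiers, of which 53620 matched GENCODE M21 by identifier. The isoform tables were not used. Expected counts were rounded to whole numbers (8.08% to 11.3% of all values per library were more than 0.005 from a whole number) and tested with edgeR 4.0.16 (quasi-likelihood, robust, TMM scaling, filterByExpr, R 4.3.3) in 1 fit of the 12 libraries by group, with 6 residual degrees of freedom and Benjamini-Hochberg adjustment over 14473 genes. Standard errors come from the fitted model.

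Libraries with the same replicate number deviated together: over 15 pairs of groups the correlation of the difference between replicates 2 and 1 was 0.205 to 0.531, and 0.452 for the mT6 control with the vector. The pairing comes from these correlations, not from the labels. Folds of genes with a group at 3 counts or fewer are ratios of depth-scaled summed counts with 95% counting intervals, which cover counting error only. Where a group had 0, the fold written as at least sets that group at 3 counts and takes the other group's counts as exact. Such a fold has no interval and is not a 95% limit.

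Members and gene lists were chosen with earlier results of these data known. Named genes are 11 set genes, the 10 largest rises and falls of at least 1 CPM without overlap between groups, the 5 largest knockout effects of each class and up to 3 called members of each list. Mapre2, Serpinb1a, Shc1, Clca1, Muc20, Muc5b, Rap1gap, Kcnk6, Galnt12, St3gal4, Vil1, Myo7b, Lgr5, Ascl2, Qsox1, Igfbp4, Lgals4, Dmbt1 and the genes of the chromosome 1 stretch were named after their values were seen. Alternatives were DESeq2 1.42.0, limma 3.58.1 on log2(TPM + 1) or log2(TPM + 0.1), other filters and scalings, fewer libraries and the replicate block. Figures used matplotlib 3.10.9. A further element of the shared genotype is not reported here.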

Additional observations from a re-analysis of the deposited data

Results flagged for a closer look

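The difference between the lines in the comparison of SPDEF vector with control, as a log2 value of mT6 minus mT69a, passed edgeR's test at an adjusted p under 0.05 for 31 of the 102 named genes, beside 6.03% of all tested genes. The named genes were partly chosen by their mT6 values, so this share is a description. The clones differ between the lines as well, and line and clone cannot be told apart.

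The value was lower in mT6 for Adgrg7 (-4.66), Aqp1 (-5.92), B3gnt7 (-3.52), Clca1 (-1.69), Creb3l1 (-2.14), Creb3l4 (-1.74), Cyba (-9.44), Dad1 (-0.806), Galnt12 (-2.46), Gpa33 (-1.72), Igfbp4 (-7.53), Lemd1 (-7.37) and Loxl2 (-3.97). It was also lower for Muc20 (-6.58), Nr4a1 (-1.74), Ppic (-11.5), Psmb8 (-12.6), Ptgs1 (-1.66), Qsox1 (-1.36), Shroom4 (-10.6), St8sia4 (-4.86), Tnfrsf10b (-1.23), Tnfrsf19 (-1.86) and Vil1 (-0.902). It was higher in mT6 for Ankrd35 (2.35), Gramd1b (3.02), Igfbp3 (6.82), Mapre2 (2.83), Rap1gap (2.59), St3gal4 (1.2) and Tacr3 (5.94).

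In 6 of these genes, Cyba, Igfbp4, Mapre2, Muc20, Shroom4 and Tnfrsf10b, both lines were called and in opposite directions. Adgrg7, Aqp1, Igfbp3, Lemd1, Ppic, Psmb8, Shroom4 and St8sia4 had a group at 3 counts or fewer, so the fitted size of these 8 differences has no fixed meaning.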

How the results depend on the processing

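The main counts were 565 higher and 680 lower genes, 300 that fell short, 10 past the control, 91 within 2-fold, 67 unresolved, and 873 that differed between the lines. They stayed within 1.5 times under DESeq2's size factors in edgeR, a filter of 10 counts in 2 libraries and without mitochondrial genes. DESeq2 gave 16 past the control, 154 within 2-fold and 104 unresolved. Without a filter 1099 were lower, the classes held 644, 37, 242 and 166, and 1487 differed between the lines. With the replicate block the values were 1306 and 1444, classes of 1122, 43, 481 and 163, and 2080 between the lines; the block changed no named gene's call. Of the named genes measured, calls were lost for 41 of 96 with the 6 mT6 libraries alone, 51 of 95 with the 4 libraries alone, 36 of 97 on log2(TPM + 1), 40 of 97 on log2(TPM + 0.1), 47 of 102 on TPM with no filter and 4 of 102 in DESeq2; with no count filter 2 of 102 were lost and Agr2 gained one (adjusted p = 0.00066). The 6 mT6 libraries alone gave 172 and 240 with classes of 55, 2, 6 and 7, and the 4 libraries alone 81 and 100. On log2(TPM + 1) there were 157 higher and 253 lower, classes of 75, 2, 17 and 20, and 259 between the lines, with 38.3% of calls higher. On log2(TPM + 0.1) there were 136 and 217, 51, 3, 4 and 25, and 246, and with no TPM filter 140 and 226, 75, 1, 19 and 4, and 221. Leaving out chromosomes 1, 14, 17 and 19, chosen after seeing the data, gave 368 and 281, with classes of 97, 6, 28 and 28. Leaving out 1 library gave 242 to 529 higher, 323 to 577 lower, 101 to 233 fell short, 1 to 7 past the control, 14 to 121 within 2-fold, 15 to 148 unresolved and 595 to 784 between the lines. Values that did not pass the test changed sign for 4 genes: Ankrd35 (-0.4296 to 0.4886) and Muc5ac (-0.8799 to 0.7021) without 1 library, Slurp1 on TPM (-0.2131, -0.27 and -0.2131), and Srgn with no filter (-0.02722), on TPM (-0.003638, -0.004676 and -0.003638) and without 1 library (-0.05044 to 0.06691). The cause of these changes was not tested. Low depth limits genes near the floor of 3 counts per group, 69 of the called genes.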
